A study of Sus scrofa and Bos taurus with 31 samples.

Results

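The regions described here are promoter regions of the pig that were open in a single tissue. Peaks of the 16 pig ATAC-seq lists were merged where they shared 1 bp, a region was called open in a tissue when both libraries of that tissue had a peak in it, and the members were the regions open in exactly 1 of 8 tissues that lay within 2 kb of the transcription start site (TSS) of a protein-coding transcript. The members were therefore chosen by the presence of peaks in these same libraries, and their number, width and fold are given as a description. There were 3894 of them among 533944 merged pig regions, 133861 of which were open in exactly 1 tissue and 23255 of which were TSS proximal and open in at least 1 tissue. The nuclei came from 3 brain regions (cerebral cortex, hypothalamus and cerebellum), from liver, spleen and lung, and from skeletal muscle and subcutaneous adipose tissue of 2 animals, P348 and P350, which were untreated Yorkshire littermates, castrated males of 6 months. No genetic change or treatment separated the groups, and each group held 1 library of each animal. Each tissue was sampled whole, so fewer cells of a type and less opening per cell cannot be told apart. Lists held between 99960 and 217308 peaks (skeletal muscle of P350 and cerebellum of P348), and read depth was not used here.

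ATAC-seq reads out DNA that a transposase can reach because it is not packed into nucleosomes. Promoters of genes used by every cell are usually rich in G, C and CpG and stay accessible in all tissues, whereas promoters of genes with a restricted use are often poor in CpG and are opened by tissue factors such as HNF1 and HNF4 in hepatocytes, MEF2 and MyoD in muscle, and PU.1 and RUNX in blood cells. Many genes carry several promoters, and dystrophin is a known case in which brain, muscle and Purkinje cells start the transcript at separate sites.

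The sequence at the TSS of the strongest TSS-containing member of each tissue is shown (RefSeq annotation, assembly Sscrofa11.1). Each window holds 170 bases before the TSS and 30 bases from it on. It can reach beyond the member region, to which the folds below refer. Capitals mark the letters of the 20 motifs that were searched on both strands, and the match of one motif may overlap that of another.
EPB41L2, adipose, chr1:32504567-32504766, plus strand: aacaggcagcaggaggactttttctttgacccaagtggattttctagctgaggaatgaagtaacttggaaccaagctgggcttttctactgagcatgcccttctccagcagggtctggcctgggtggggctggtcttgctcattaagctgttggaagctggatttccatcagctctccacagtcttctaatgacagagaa
DSG3, cerebellum, chr6:115351835-115352034, plus strand: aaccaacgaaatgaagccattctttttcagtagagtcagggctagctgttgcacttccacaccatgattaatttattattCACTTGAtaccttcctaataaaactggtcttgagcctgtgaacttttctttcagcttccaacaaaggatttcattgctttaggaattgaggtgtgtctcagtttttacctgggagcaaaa
CFAP65, cerebral cortex, chr15:121067195-121067394, minus strand: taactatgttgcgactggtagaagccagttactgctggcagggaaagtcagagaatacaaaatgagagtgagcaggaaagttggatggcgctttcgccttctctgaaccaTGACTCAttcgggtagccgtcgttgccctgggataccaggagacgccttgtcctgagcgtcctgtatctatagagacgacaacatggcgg
TSC22D3, hypothalamus, chrX:88179868-88180067, minus strand: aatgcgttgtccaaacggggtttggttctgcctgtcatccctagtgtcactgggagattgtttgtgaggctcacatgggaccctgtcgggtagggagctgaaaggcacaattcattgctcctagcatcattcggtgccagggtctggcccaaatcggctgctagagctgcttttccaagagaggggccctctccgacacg
TDO2, liver, chr8:44708552-44708751, plus strand: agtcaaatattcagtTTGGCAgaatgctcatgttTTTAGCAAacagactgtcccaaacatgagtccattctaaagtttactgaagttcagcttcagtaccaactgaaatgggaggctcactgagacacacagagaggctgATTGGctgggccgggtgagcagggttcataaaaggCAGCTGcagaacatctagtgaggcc
AGR2, lung, chr9:86053803-86054002, minus strand: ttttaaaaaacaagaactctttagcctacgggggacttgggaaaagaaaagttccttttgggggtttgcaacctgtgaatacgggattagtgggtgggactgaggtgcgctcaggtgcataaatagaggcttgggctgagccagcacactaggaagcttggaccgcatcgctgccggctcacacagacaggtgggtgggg
KCNS3, skeletal muscle, chr3:119977824-119978023, minus strand: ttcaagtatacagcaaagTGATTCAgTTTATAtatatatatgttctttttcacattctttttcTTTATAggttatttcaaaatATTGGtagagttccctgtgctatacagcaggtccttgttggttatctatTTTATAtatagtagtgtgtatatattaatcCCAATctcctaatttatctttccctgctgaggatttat
GPR174, spleen, chrX:63288789-63288988, plus strand: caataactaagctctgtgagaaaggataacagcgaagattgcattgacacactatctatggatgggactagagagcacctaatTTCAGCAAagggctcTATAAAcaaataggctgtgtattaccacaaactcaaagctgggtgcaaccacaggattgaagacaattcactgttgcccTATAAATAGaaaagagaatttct
The CFAP65 window held the AP-1 letters TGANTCA and the DSG3 window the NKX2-1 letters CACTTGA. The TDO2 window held the C/EBP letters TTGCNNAA together with 1 match each of the CCAAT box, the MyoD E-box and the NFI letters TTGGCA. In GPR174 the TATAAA letters occurred at positions -72 and 8 from the TSS, and at position 8 they overlapped the MEF2 letters CTATTTATA. The same window held the C/EBP letters. None of the 20 motifs was found in these letters at EPB41L2, TSC22D3 or AGR2. The KCNS3 window held TATAAA at -144, -107 and -38, CCAAT at -87 and -8 and the AP-1 letters at -152. Of these, only the matches at -38 and -8 lay inside the KCNS3 member region. The KCNS3 window was 94.0% soft-masked repeat with a GC content of 29.0%, whereas the other 7 windows held between 0 and 22.5% repeat. A match is a string of letters in this window and was not tested as a binding site.

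The next starts belong to tissue genes that the results below return to, each with 110 bases before the TSS and 30 bases from it on.
ADIPOQ, adipose, chr13:124633796-124633935, plus strand: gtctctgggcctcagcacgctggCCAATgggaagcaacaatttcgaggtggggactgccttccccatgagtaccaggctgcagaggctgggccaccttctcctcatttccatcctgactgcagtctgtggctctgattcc
PPARG, adipose, chr13:68382962-68383101, plus strand: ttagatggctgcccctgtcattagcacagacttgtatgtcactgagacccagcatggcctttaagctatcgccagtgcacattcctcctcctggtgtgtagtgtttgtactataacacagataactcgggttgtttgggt
TTR, liver, chr6:115496228-115496367, plus strand: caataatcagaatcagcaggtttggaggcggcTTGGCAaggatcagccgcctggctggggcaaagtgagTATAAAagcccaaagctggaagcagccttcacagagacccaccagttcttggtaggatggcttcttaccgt
DMD, cerebral cortex, chrX:29303333-29303472, minus strand: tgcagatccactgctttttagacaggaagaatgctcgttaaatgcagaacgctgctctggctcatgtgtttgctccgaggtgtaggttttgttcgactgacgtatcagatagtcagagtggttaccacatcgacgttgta
The TTR window held TATAAA at position -41 and the NFI letters TTGGCA at position -78, the ADIPOQ window held CCAAT at position -87, and the PPARG and DMD windows held none of the 20 motifs.

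Skeletal muscle had the most members, 860, followed by cerebellum (689), cerebral cortex (607), lung (540), liver (453), spleen (420) and adipose (291), and hypothalamus had 34. Relative to the mean length of the 2 lists of a tissue this was 7.62 members per 1000 peaks in skeletal muscle, 0.269 in hypothalamus, and between 2.08 (adipose) and 4.01 (spleen) in the remaining tissues. The order depended on the peaks admitted. With peaks of a listed q-value of 0.0001 or less the members were 1736 in skeletal muscle, 547 in liver, 500 in cerebral cortex, 482 in spleen, 236 in lung, 124 in cerebellum, 34 in hypothalamus and 6 in adipose. With every list cut to 99960 peaks they were 1128 in skeletal muscle, 642 in spleen, 597 in liver, 498 in cerebral cortex, 319 in lung, 297 in adipose, 280 in cerebellum and 107 in hypothalamus.

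Members were sorted by the other starts of their genes. At 1117 members (28.7%, Wilson 95% interval 27.3 to 30.1%) the gene had another TSS within 2 kb of a region open in all 8 tissues, which is called an alternative promoter here. Intervals cover counting error only. At 544 members (13.97%) the nearby TSS itself also lay within 2 kb of an all-tissue region (shared start). At the remaining 2233 members (57.3%, 55.8 to 58.9%) no start of the gene was open in all tissues. Of these, 1261 lay at genes with a region open in a further tissue near some start (partial), and 972 at genes without one (sole). Alternative promoters made up 35.9% of the members of skeletal muscle (309 regions) and 33.8% of those of cerebral cortex (205), against 18.0% in cerebellum (124), where 341 members (49.5%) were sole. The class depended on the peaks admitted, since the genes with an all-tissue start numbered 11338 with the lists as deposited and 5828 at a q-value of 0.0001 or less, where the alternative share was 13.4% and the share without an all-tissue start 82.1%.

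**Figure D1:**
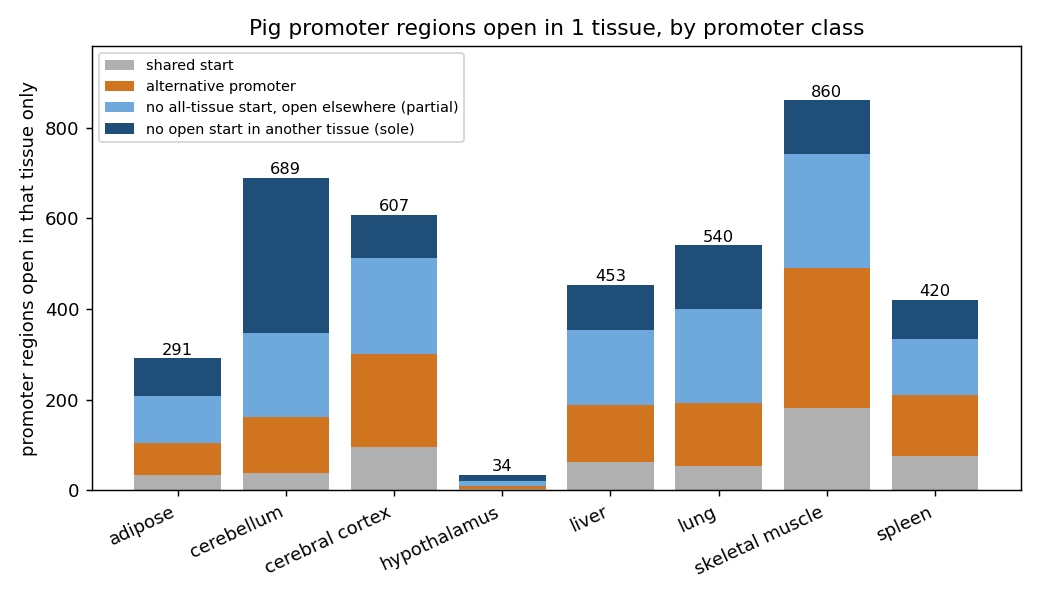
Number of pig promoter regions open in 1 tissue (y axis) for each of the 8 tissues (x axis), with colours for the promoter class and the total above each bar. Skeletal muscle had 860, of which 309 were alternative promoters, cerebellum had 689, of which 341 were sole, and hypothalamus had 34.

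The members touched 3319 of 20394 protein-coding genes (16.3%). The share of all genes with a member was 3.93% in skeletal muscle, 3.26% in cerebellum, 2.9% in cerebral cortex, 2.58% in lung, 2.19% in liver, 2.05% in spleen, 1.46% in adipose and 0.177% in hypothalamus, which is the background for the gene lists below. Of the 3319 genes, 2918 had members in 1 tissue, 344 in 2, 52 in 3, 4 in 4 (AKAP2, CHST11, GNPTAB and STXBP6), and NCOA7 had 5 members in 5 tissues. A start open in all tissues was present in 11338 genes of the annotation (55.6%) and in 1329 of the genes with a member (40.0%). Genes with a member had 2 or more annotated TSS positions in 56.7% of cases against 44.9% of all genes. Only 103 members lay near the TSS of more than 1 gene.

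Folds were close to those of distal regions. The value used is the fold enrichment that the peak caller listed, taken as the highest over the peaks of a library in the region, and the weaker of both animals is quoted as the weaker fold. Its median over all members was 2.83, compared with 2.84 for 129967 distal regions open in 1 tissue. Among tissues the median ran from 2.48 in lung and 2.49 in adipose to 3.25 in skeletal muscle and 3.31 in liver, and the highest values were 13.7 in skeletal muscle and 11.6 in liver. A peak in a single animal of another tissue was permitted by the rule, and 1544 members (39.7%) had no peak in any of the 14 libraries of other tissues, 1010 had a peak in 1 such library, and 5 had peaks in 7. The share without any other peak was 52.8% in skeletal muscle, 46.7% in spleen and 46.1% in liver, 27.8% in lung, and 5.88% in hypothalamus, where it was 2 of 34 regions. At the edge of the rule, the 184 members in the last 100 bp inside the limit of 2 kb had a median weaker fold of 2.76, and the 204 regions of a single tissue in the next 100 bp, which were not members, had 2.80. The 1946 TSS proximal regions open in exactly 2 tissues had 2.57 as the weakest of their 4 libraries.

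The liver members with the highest weaker fold among those that contain a TSS lay at genes of hepatocyte metabolism and secretion. TDO2, the tryptophan dioxygenase of the liver, had folds of 13.3 and 11.6 in P348 and P350 (chr8:44708501-44708902). TTR, the carrier of thyroxine and retinol-binding protein, had 9.72 and 9.05, and HSD17B13, a lipid droplet enzyme, had 8.46 and 6.82. None of these 3 regions had a peak in any of the 14 other libraries. All 3 genes were partial, with further regions near their starts open in 1 or 2 other tissues.

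In skeletal muscle the 3 leading regions were likewise without a peak elsewhere. KCNS3, a modifier subunit of voltage-gated potassium channels, had folds of 13.7 and 14.7 at an alternative promoter (chr3:119977552-119977904), the region whose TSS window was mostly repeat. ATG4A, a protease of autophagy, had 12.6 and 13.3 at an alternative promoter, and BEST3, a bestrophin channel protein, had 11.39 and 11.08 and was sole.

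The spleen members were led by GPR174, a receptor of lymphocytes, with folds of 7.74 and 6.69 and a peak of 3.98 in the liver of P348. TMEM156 had 8.27 and 6.68 with no peak elsewhere, and NCALD, a neuronal calcium sensor, had 6.95 and 5.19 at an alternative promoter that also had a peak of 3.72 in the liver of P348. The liver of P348 also had peaks at the spleen members of MBNL1, CCR7 and FCER2 (3.97, 4.51 and 3.35), whereas the liver of P350 had none at these 5 regions. The share of blood cells in that liver library, and its part in these peaks, was not tested.

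In lung, AGR2, a disulfide isomerase of mucus-producing epithelium, had 8.10 and 8.16 and was sole, with peaks of 2.70 to 3.06 in 1 animal each of adipose, cerebellum and hypothalamus. MBD5, a methyl-CpG-binding domain protein, had 6.44 and 6.15 at an alternative promoter, and CYTIP, a regulator of cytohesins in leukocytes, had 4.77 and 5.33.

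Adipose values were lower and closer together. EPB41L2, a protein of the membrane skeleton, had 4.09 and 3.75 at an alternative promoter, ACAD10, an acyl-CoA dehydrogenase family member, had 3.38 and 3.43, and ADIPOQ, which encodes adiponectin, had 3.15 and 3.12. ADIPOQ was sole and had no peak in another tissue, whereas EPB41L2 had peaks of 2.80 in the liver of P348 and 3.70 in the lung of P350, the latter close to the adipose folds.

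In cerebellum, DSG3, a desmosomal cadherin of stratified epithelium, had 5.64 and 7.46, with 3.20 in the lung of P348. MET, the receptor of hepatocyte growth factor, had 5.00 and 4.41 at an alternative promoter and no other peak. G6PC2, the glucose phosphatase of pancreatic islets, had 4.2 and 6.53, with 3.15 in the adipose of P350.

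Cerebral cortex was led by CFAP65, a protein of cilia and flagella, with 6.67 and 8.85, by MGAT4C, a glycosyltransferase, with 6.37 and 6.56, and by IFT81, a subunit of the intraflagellar transport complex, with 5.97 and 7.56. Each of the 3 also had a peak in the hypothalamus of P350, of 3.66, 5.14 and 6.09, and none in the hypothalamus of P348. Peaks were not limited to brain. CFAP65 had 3.98, 3.94, 3.20 and 2.83 in the cerebellum, skeletal muscle, liver and lung of P350. IFT81 had 2.96, 2.41 and 2.68 in the adipose, skeletal muscle and spleen of P348, and MGAT4C had 3.40 in the cerebellum of P348. At IFT81 the hypothalamus peak was as high as the weaker cortex value, so only the absence of a peak in P348 set hypothalamus apart.

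The hypothalamus members had a median weaker fold of 2.87 and a maximum of 3.77. TSC22D3, a leucine zipper protein induced by glucocorticoids, had 3.95 and 3.77 at an alternative promoter. The same region had a peak of 3.62 in the cerebral cortex of P350, close to the hypothalamus folds. FSCB, a protein of the sperm fibrous sheath, had 3.07 and 3.04 with peaks of 2.98 and 2.88 in the cerebellum and lung of P348. CHRNA6, a nicotinic acetylcholine receptor subunit, had 3.55 and 2.90 with a higher peak of 4.21 in the cerebral cortex of P348.

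**Figure D2:**
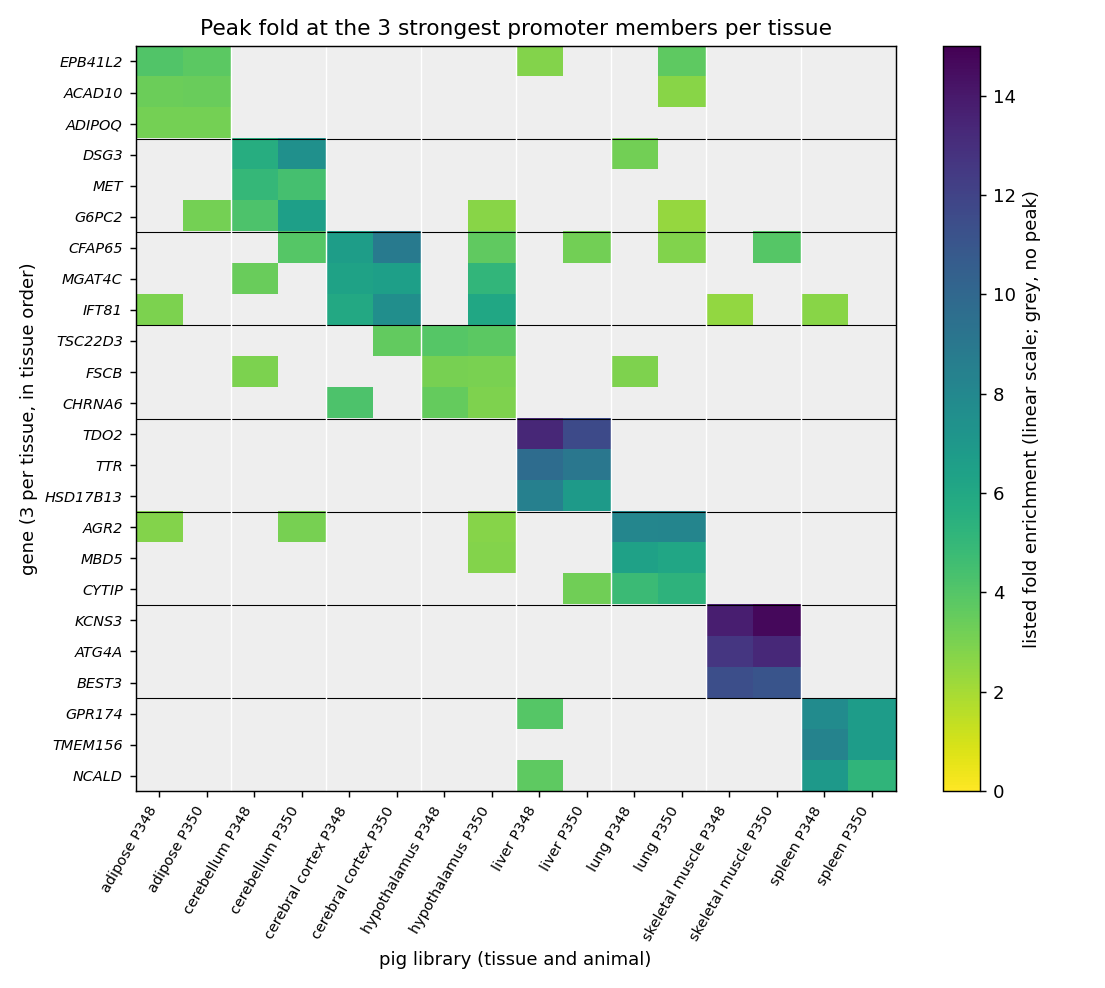
Listed fold enrichment (colour, linear scale from 0 to 15, grey where the library had no peak) of the 3 TSS-containing members with the highest weaker fold per tissue (rows) in the 16 pig libraries (columns). Liver and skeletal muscle regions had no peak outside their tissue, whereas each of the 3 cerebral cortex regions had peaks in several other libraries, among them the hypothalamus of P350.

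The alternative promoters formed 1119 pairs of a member and a gene, over 831 genes. In 917 pairs (81.9%) the start at the member lay downstream of the nearest all-tissue start in the direction of transcription, by a median of 26.4 kb, and in 202 pairs (18.1%) it lay upstream, by a median of 18.9 kb. The downstream share was between 71.4% (hypothalamus, 7 pairs) and 85.1% (skeletal muscle, 309 pairs) in every tissue. In 623 pairs (55.7%) the transcripts of both starts had no first coding base in common, so the annotation gives them different protein N-termini, and in the remaining pairs at least 1 pair of transcripts shared it. Only 55 of the 1119 starts (4.92%) belonged to a curated transcript, and the rest were computed gene models. The region itself contained the TSS in 309 pairs, with 78.0% downstream.

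Several named cases illustrate the class. PPARG, the nuclear receptor that drives adipocyte formation, had an adipose member with folds of 2.73 and 2.84 that contained a start 80527 bp downstream of its all-tissue start, and single-animal peaks of 2.98 in the cerebellum of P350 and 2.65 in the spleen of P348 were about as high. DMD, which encodes dystrophin, had separate members in 3 tissues, all upstream of its all-tissue start. Positions are given relative to the all-tissue start, with negative values upstream. The cerebral cortex member (3.25 and 2.68) contained the start farthest upstream, at -2120393 bp. The skeletal muscle member (2.73 and 3.31) lay 355 bp from a start at -1918797 bp, and the cerebellum member (3.52 and 3.23) lay 948 bp from a start at -938519 bp. The cortex and muscle regions had no peak elsewhere, and the cerebellum region also had peaks of 2.99 in the cerebral cortex and 3.60 in the hypothalamus of P350, the latter above both cerebellum folds. The printed DMD window belongs to the cortex start, and the TSS windows of the muscle and cerebellum members were 94.3% and 100% repeat. None of these starts was matched to a known dystrophin promoter, and the cerebellum member is not shown to be the Purkinje cell promoter.

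Other strong alternative promoters by the same rule were SLC4A4, a sodium bicarbonate cotransporter, in cerebellum (6.90 and 5.41, start at -62055 bp), SORBS2, an adaptor of the actin cytoskeleton, in cerebral cortex (5.85 and 7.03, start at -256046 bp) and RASAL2, a Ras GTPase-activating protein, in hypothalamus (4.29 and 3.71, start at 282548 bp). In liver they were ZMYND11, a chromatin reader (8.99 and 6.66, start at 82035 bp), and RPP40, a subunit of RNase P (8.79 and 5.68, start at -37124 bp). In lung, CHD1L, a chromatin remodeller, had 5.56 and 5.25 and a higher peak of 7.25 in the skeletal muscle of P348. In spleen, MBNL1, a splicing regulator, had 6.67 and 5.09 at a start at -24216 bp, while a pair of weaker members at MBNL1 was open in skeletal muscle alone. MET had the cerebellum member named above and another alternative promoter in lung (5.20 and 2.87), and ADRB3, the beta-adrenergic receptor of fat, had regions on either side of the same start that were open in spleen (5.51 and 4.26) and in cerebellum (2.50 and 2.60).

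Lists of 30 marker genes per tissue were read against the members. In skeletal muscle 11 of 29 annotated list genes had a muscle member, where 3.93% of all genes did: ATP2A1, DMD, LDB3, MYH1, MYH2, MYL1, MYLPF, NEB, TNNC2, TNNT1 and TNNT3, which encode the calcium pump and proteins of the sarcomere and membrane. MYL1 had folds of 7.80 and 7.56, NEB 6.29 and 5.55, and the stronger of the MYH1 regions 6.90 and 5.05. In liver 9 of 29 had a liver member (background 2.19%): AHSG, APOC3, APOH, ARG1, CYP2E1, SERPINC1, SERPIND1, TAT and TTR, that is plasma proteins, an apolipoprotein and enzymes of amino acid and drug metabolism. TAT, tyrosine aminotransferase, had 5.28 and 5.30, and APOH had 4.05 and 3.66. In spleen 8 of 28 had a spleen member (background 2.05%), among them BLK, CCR7, CD79A, CXCR5, FCER2, IKZF3 and MS4A1, genes of B cells and of lymphocyte homing. CCR7 had 3.87 and 3.62 but a higher peak of 4.51 in the liver of P348, whereas CD79A (2.97 and 2.67) had none elsewhere.

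The other lists held fewer members. Adipose had 4 of 29 (ACSL1, ADIPOQ, CIDEA and PPARG, background 1.46%), cerebellum 3 of 30 (FAT2, LHX1 and PAX6, background 3.26%), cerebral cortex 2 of 30 (ARPP21 and NEUROD6, background 2.9%), lung 1 of 29 (SFTPC, background 2.58%) and hypothalamus 0 of 30 (background 0.177%). LHX1, a homeobox gene of Purkinje cells, had 4.81 and 5.09, and SFTPC, the surfactant protein of alveolar cells, had 2.73 and 2.09 and no peak elsewhere. The list genes without a member were mostly open in more tissues than their own. Of the skeletal muscle list all 29 had a start open in muscle, in 5 cases in muscle alone, in 20 with 1 to 6 further tissues and in 4 in all 8. Of the hypothalamus list 18 of 30 had a start open in hypothalamus, and none in hypothalamus alone. A marker gene could also have a member in another tissue, as at 7 genes of the adipose list and 7 of the hypothalamus list. Of all genes, 16.3% had a member in some tissue, and these counts were not tested against it. CD36, a fatty acid transporter, had 3 members in skeletal muscle, the strongest with 5.34 and 4.50, and OXT, which encodes oxytocin, lay 1678 bp from a muscle member with 6.59 and 4.78.

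Lists of other cell types were read in the same way, with the same background per tissue and 16.3% of all genes for a member in any tissue. The lists are short, and no count was tested against this. Of 10 endothelial genes 1 had a lung member (EGFL7, 1.89 and 1.88) and 1 a liver member (CDH5, 2.51 in both animals). Of 10 smooth muscle genes 1 had a lung member (ACTA2, 6.01 and 4.26, with 4.48 in the adipose of P348). Of 10 astrocyte genes 2 had a member, AQP4 in cerebral cortex and liver and SLC1A2, a glutamate transporter, in liver and spleen. At SLC1A2 the liver folds were 4.69 and 4.74. The oligodendrocyte genes CNP and OPALIN had members in adipose, OPALIN also in cerebellum and lung, and UGT8 had one in liver (6.16 and 3.95). None of the erythroid genes had a member. Among 8 keratinocyte genes DSG3 and TP63 had cerebellum members, KRT5 a cerebral cortex member and TP63 also a skeletal muscle member. Of 19 genes of organs that were not sampled, 5 had a member in some tissue (background 16.3%). Among them were GAST in cerebral cortex (3.87 and 3.35), CDX2 in liver (3.19 and 3.68) and UMOD in lung (2.55 and 2.57).

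Many cerebellum members lay near olfactory receptor genes, a group singled out, with the alternatives given for it, after the data had been seen. These genes encode the odorant receptors of the nose and form the largest gene family of mammals, in clusters of related genes. The annotation held 1482 of them among 20394 protein-coding genes, and 211 had a region open in cerebellum alone, which was 31.7% of all genes with a cerebellum member. This was 14.2% of the olfactory receptor genes, against 3.26% of all genes. For hypothalamus members the shares were 0.607% and 0.177%, and in each remaining tissue the olfactory share was below that of all genes. With a member in any tissue there were 261 (17.6%), close to the 16.3% of all genes. In hypothalamus 9 of 36 genes with a member were olfactory receptor genes (25.0%), and in the remaining tissues their share was 0.249 to 3.03%. The counts in the other tissues were 11 in lung, 9 each in adipose, cerebral cortex and hypothalamus, 7 in spleen, 5 in liver and 2 in skeletal muscle. The peaks themselves were counted in each library. Regions with a peak no farther than 2 kb from an olfactory receptor start numbered 762 and 562 in the cerebellum of P348 and P350, between 132 and 290 in the libraries of 6 other tissues, and 36 and 17 in skeletal muscle. As a share of a library's regions this was 0.359 and 0.280% in cerebellum and at most 0.233% elsewhere (hypothalamus of P348). The cerebellum lists were also the longest of the 16.

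The 220 cerebellum members near olfactory receptor genes were not distinguished by a low fold. Their median weaker fold was 2.81, against 2.61 in the other 469 cerebellum members, and the highest was 4.2. Their median GC content was 45.8% against 49.1%, and 23.6% of them were mostly repeat against 10.0%. The region contained the TSS in 53 cases, and 99 had no peak in another tissue. They lay on 32 sequences of the assembly, most often on chromosome 2 (53) and chromosome 9 (48). The strongest were at olfactory receptor 13A1 (4.2 and 5.93) and at a 2W1-like gene (5.81 and 4.2), the latter 88.3% repeat. With each list cut to 99960 peaks, 95 olfactory receptor genes had a cerebellum member, against 4 to 21 in the other tissues. With a q-value of 0.0001 or less there were 25 against 0 to 7. Without P348 there were 187 and without P350 there were 381, in the latter case from the peaks of P348 alone. With a TSS distance of 500 bp there were 116, and with curated transcripts only, which left 53 cerebellum members in all, there were 0. Reads that map to several near-identical genes can be lost or misplaced, and the part this has in the counts was not tested.

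**Figure D3:**
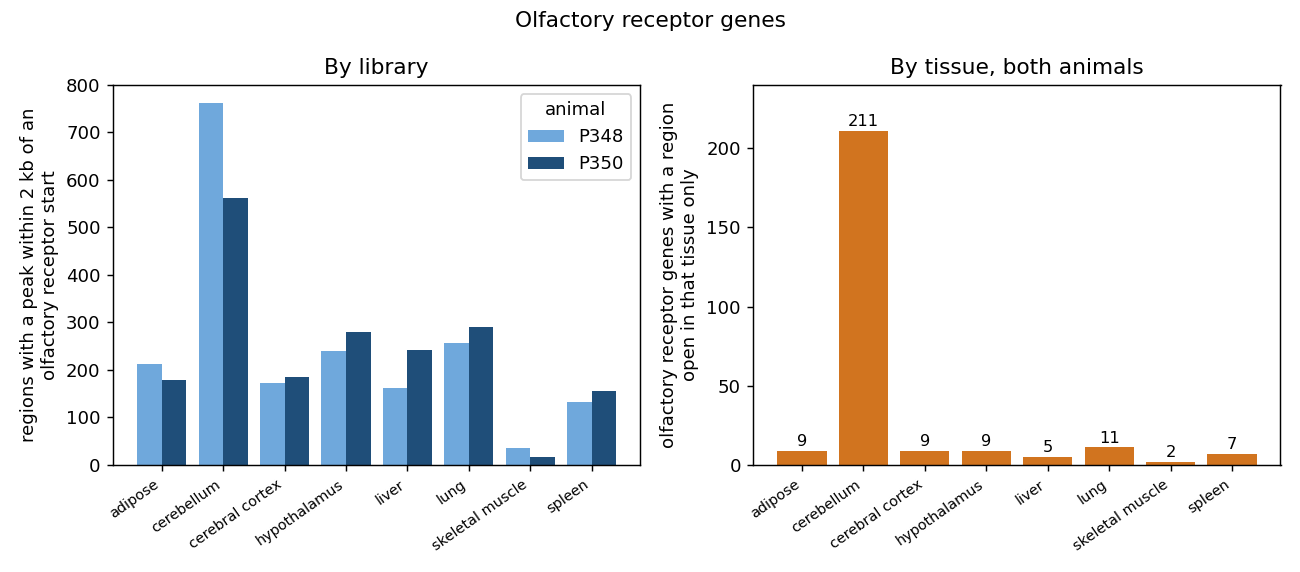
Left, the number of regions with a peak no farther than 2 kb from an olfactory receptor TSS (y axis) in each pig library (x axis, tissue; colour, animal). Right, the number of olfactory receptor genes with a region open in that tissue only, where cerebellum had 211 and the other tissues 2 to 11.

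Other families were spread over tissues. Of 354 solute carrier genes (SLC) 88 had a member (24.9%, against 16.3% of all genes), with 23 each in liver and skeletal muscle. Of 94 potassium channel genes (KCN) 25 had one (26.6%), 9 of them in skeletal muscle and 8 in cerebral cortex, and of 35 keratin genes (KRT) 11 had one (31.4%). Zinc finger genes (ZNF) had 28 of 256 (10.9%) and collagen genes (COL) 6 of 44 (13.6%), 4 of them in skeletal muscle. Among the SLC genes SLC15A5 had folds of 8.21 and 8.62 in lung, SLC22A7, an organic anion transporter, had 6.29 and 6.31 in skeletal muscle, and SLC38A4, an amino acid transporter, had 7.12 and 5.45 in liver. GPR22 and GPR52, orphan receptors of the brain, had 5.27 and 5.24 and 5.02 and 4.68 in cerebral cortex.

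The DNA of the members, which the rule did not use, lay between that of ubiquitous promoters and that of distal regions. The median GC content was 50.2% in the members, 60.3% in the 10448 TSS proximal regions open in all 8 tissues and 46.8% in the distal 1-tissue regions. The tissue medians of the members ranged from 48.0% in cerebellum to 55.6% in adipose. They were below the all-tissue median in 8 of 8 tissues, with a mean difference of -9.26 percentage points (SD 3.03, n = 8 tissues; exact sign-flip permutation test, 2-sided, p = 0.00781, the smallest that 8 tissues allow; Benjamini-Hochberg adjusted over 4 tests, 0.0104). The all-tissue value is shared by the 8 differences. Compared with the distal regions of the same tissue they were higher in 8 of 8 tissues, by 3.31 points (SD 0.828; exact p = 0.00781, adjusted 0.0104). With a q-value of 0.0001 or less the mean differences were -4.90 and 6.19 points. The first had an exact sign-flip p of 0.0312, so not every tissue stayed below the all-tissue median. The second had an exact sign-flip p of 0.00781, so it stayed positive in 8 of 8 tissues. The ratio of observed to chance CpG exceeded 0.6 in 5.86% of the members, 74.3% of the all-tissue promoters and 1.97% of the distal regions. Members that were mostly soft-masked repeat made up 5.98%, against 0.0383% of the all-tissue promoters and 13.1% of the distal regions, and their share was highest in cerebellum (14.4%) and lowest in cerebral cortex (0.988%).

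**Figure D4:**
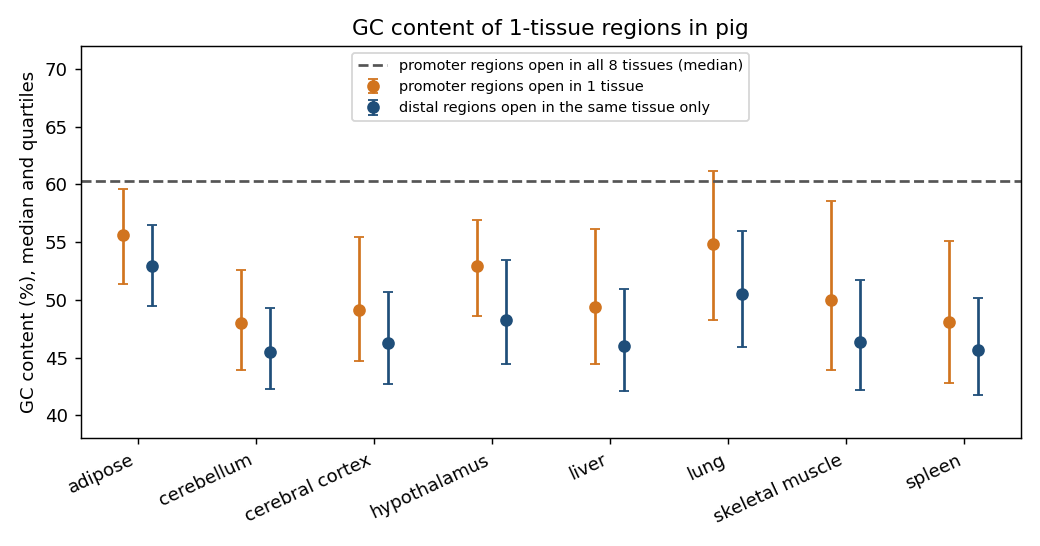
GC content in percent (y axis; points, medians; bars, quartiles) of promoter regions open in 1 tissue and of distal regions open in that tissue only, for each of the 8 tissues (x axis). The dashed line is the median of promoter regions open in all 8 tissues, 60.3%, and the member median lay below it and above the distal median in every tissue.

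Members seldom covered the start itself. A TSS lay within 1043 members (26.8%), 1334 (34.3%) lay upstream of the nearest TSS and 1517 (39.0%) downstream, with a median distance of 777.5 bp over all of them. Of the all-tissue promoters 94.2% contained a TSS. The difference per tissue averaged -67.0 percentage points (SD 4.34, n = 8 tissues, lower in 8 of 8; exact sign-flip permutation test, 2-sided, p = 0.00781, adjusted 0.0104). The all-tissue regions were wider, with a median of 1782 bp against 799 bp, and the part of width in the difference was not tested. With a TSS distance of 500 bp, which left 1665 members, the difference was -35.9 points. Sole members contained the TSS most often (39.2%) and shared-start members least (7.17%), the latter with a median width of 431 bp. Among regions that contained a TSS, TATAAA stood within 50 bases before it in 31 of 1043 members (2.97%, Wilson 95% interval 2.1 to 4.19%) and in 120 of 9843 all-tissue promoters (1.22%, 1.02 to 1.46%).

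Letters of known motifs were counted in the 300 bases around the region centre, on both strands, with no test. The MEF2 letters CTATTTATA were present in 14 of 860 skeletal muscle members (1.63%), 0.297% of members of other tissues and 0.0766% of all-tissue promoters. The HNF1 letters GTTAATNAT were present in 19 of 453 liver members (4.19%), 1.02% of members of other tissues and 0.153% of all-tissue promoters. In spleen the RUNX letters TGTGGTTT and the PU.1 letters GAGGAAGT were each present in 6.19%, against 2.01% and 2.19% of members of other tissues. Of the distal regions of the same tissue, the share with the letters was 6.63% for RUNX and 5.62% for PU.1 in spleen, 2.72% for HNF1 in liver, and 1.09% for MEF2 and 25.1% for CAGCTG in skeletal muscle. The NeuroD letters CAGATGG were present in 11.3% of cerebellum members and 6.77% of the others, and in cerebral cortex in 7.74% against 7.54%. The MyoD letters CAGCTG were present in 28.1% of muscle members against 20.6%. The FOXA letters TGTTTAC (5.30% against 3.95%) and the C/EBP letters TTGCNNAA (16.1% against 12.5%) differed less in liver, and in adipose the C/EBP letters were rarer (8.59% against 13.2%), as were the PPAR and RXR letters AGGTCANAG (2.75% against 3.69%). The AP-1 letters TGANTCA were present in 14.7% of cerebral cortex members against 9.40%, and in 10.0% of lung members against 10.3%. Of the motifs marked in the printed windows, the share of all-tissue promoters with the letters was 3.27% for AP-1, 1.48% for the NKX2-1 letters, 6.29% for C/EBP, 3.63% for TATAAA, 25.4% for CCAAT, 16.6% for CAGCTG and 8.99% for TTGGCA. The HNF4 letters CAAAGTCCA were present in 6 of 453 liver members (1.32%) against 0.262% of members of other tissues and 1.66% of distal liver regions. The remaining letters searched were GGGCGG (GC box), CCGGAAGT (ETS), GCGCATGCG (NRF1), TGACGTCA (CRE) and GTTGCCA (RFX). The GC box was present in 63.5% of all-tissue promoters, 16.3% of liver members and 17.6% of spleen members. Base composition differs between these sets, as given above, and its part in the motif shares was not tested.

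The second animal gave a measure whose peak calls did not enter the choice of tissue. The regions themselves were the merged ones used above, built from the lists of P348 and P350 together. Peaks of the second animal therefore helped to set the borders of a region and its distance to a TSS. The reading is not fully independent of the choice for that reason, and the part of the shared merging in it was not tested. Regions near a TSS with a peak in exactly 1 tissue of 1 animal were chosen, and the 8 libraries of the other animal were read at them. In skeletal muscle 66.8% of the 855 regions chosen in P348 had a muscle peak in P350, against a mean of 4.64% over the 7 other tissues of P350, and in the reverse direction the values were 79.6% and 4.6%. Cerebral cortex had 63.1 and 47.8%, liver 46.9 and 61.2%, spleen 47.7 and 64.5%, cerebellum 35.2 and 42.9%, and lung 39.8 and 36.2%. Adipose had 16.9 and 24.8%, and its regions were found in the lung of P350 in 11.7% of cases. Hypothalamus had 6.10% of 164 regions and 3.73% of 241 regions, below the mean of the 7 other tissues (13.0 and 8.42%), and the regions were more often found in cerebellum (28.0 and 20.7%). The same-tissue share exceeded the mean of the other tissues in 7 of 8 tissues, by 36.6 percentage points on average (SD 23.2, n = 8 tissues; exact sign-flip permutation test, 2-sided, p = 0.0156, adjusted 0.0156). The 8 differences come from the same 2 animals, so the test covers the spread between tissues and not that between pigs.

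**Figure D5:**
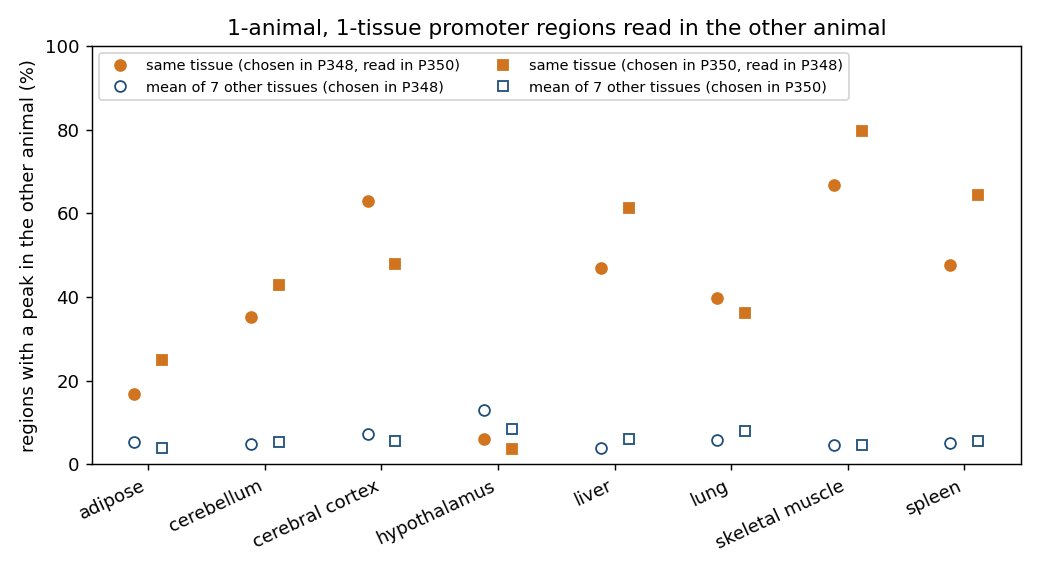
Percent of promoter regions with a peak in exactly 1 tissue of 1 animal that had a peak in the other animal (y axis), in the same tissue (filled) and as the mean of the 7 other tissues (outlined), for each of the 8 tissues (x axis); circles, chosen in P348; squares, chosen in P350. Filled points lay above outlined ones in every tissue but hypothalamus, where they lay below at 6.10 and 3.73%.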

How the data were processed

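ATAC-seq peak lists of 16 pig libraries were used, 1 per tissue and animal. Per the labels and the study's methods, nuclei were frozen from fresh tissue. The methods give Trim Galore 0.4.5, BWA 0.7.17, SAMtools 1.10 (mapping quality below 30 removed) and Picard 2.18.17 for ChIP-seq reads, and read-end shifting or other ATAC-specific processing was not given in the sources used here. The authors called broad peaks with MACS2 at a stated q-value limit of 0.05, yet the deposited lists reach a −log10 q of 1.00. The deposited columns used were the score, the fold enrichment (a ratio) and −log10 q. Fold, q and list length were not corrected for depth. Lists were processed with Python 3.11.15, pandas 2.3.3, SciPy 1.17.1 and pysam 0.24.0, and TSSs came from the RefSeq annotation release of Sscrofa11.1 given as reference, whereas the study used an Ensembl annotation. The 15 cattle lists were not used here.

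The members, gene lists and motifs were chosen with earlier results of these data known. Named genes were, per tissue, the 3 TSS-containing members and the 2 alternative promoters with the highest weaker fold, without placeholder symbols, and list genes with a member. Cases drawn from the families were named after their values were seen. Tissues were compared by the exact sign-flip permutation test. Tests and region calls were tested on simulated data. A few genes of the lists are not reported here by name.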

Additional observations from a re-analysis of the deposited data

Results flagged for a closer look

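With the lists as deposited, hypothalamus stood apart from the other 7 tissues in the reading of the second animal. Its same-tissue share was lower than the mean of its other tissues by 5.78 percentage points (a difference of -5.78, the mean of -6.88 when chosen in P348 and -4.68 when chosen in P350), whereas both directions were positive in each of the other 7 tissues. The difference between hypothalamus and the other tissues was not tested. It depended on the peaks admitted. With a q-value of 0.01 or less, with 0.0001 or less and with lists of equal length, the exact sign-flip p was 0.00781. That value needs a positive difference in every tissue, so hypothalamus was positive under these 3 alternatives. Hypothalamus also had 34 members, of which 2 had no peak in another tissue.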

How the results depend on the processing

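The 4 tested results kept the direction of their mean and stayed below a p of 0.05 under all 42 alternatives run for them, with a highest exact sign-flip p of 0.0312. Single tissues did not always keep their sign. For GC content against all-tissue promoters this was so with a q-value of 0.01 or less, with 0.0001 or less, and without P350. For GC content against distal regions it was so for members without any peak in the other tissues (exact sign-flip p = 0.0156). In the reading of the second animal hypothalamus changed sign, as given above.

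The number of members was 3894 and was 1665 with a TSS distance of 500 bp, 1544 without any peak in the other tissues, 559 with curated transcripts only, and 5394 to 6137 when open was called from 1 animal. The alternative share of 28.7% was 22.9% at a q-value of 0.01 or less, 13.4% at 0.0001 or less, 24.6% with lists of equal length, 33.2% with a TSS distance of 500 bp, 0.537% with curated transcripts only, and 26.1 to 28.4% in 1 animal. The share without an all-tissue start (57.3%) was, in the same order, 68.7%, 82.1%, 65.6%, 66.5% and 80.9%, was 52.4% without any peak in the other tissues, and 53.5 to 56.6% in 1 animal. Curated transcripts were 4116 of 63227. No paired analysis was possible because the results are region calls that need both animals, and differences over tissues, with no test between groups of libraries. With 2 littermates, no statement about pigs in general can be made, and depth was not used.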
